A study of Mus musculus with 6 samples.

Results

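Foxp3, the 5 Ikaros family genes Ikzf1 to Ikzf5 and the Foxp3 partners Foxp1, Runx1 and Cbfb were followed on 6 arrays of RNA from regulatory T cells (Tregs) of the mouse. These 9 genes, of 18193 with a probe set of their own, were taken by name with every probe set that the platform annotation gives to 1 of them alone. That gave 29 probe sets of 45037. Of these, 24 were bright enough to be tested among 27022 probe sets. Spleens and lymph nodes of C57Bl/6 mice, 8 to 11 weeks old, gave the cells, which were sorted by FACS for CD4, CD25 and FoxP3. All mice, controls included, carried a FoxP3GFP reporter, and all cells were cultured for 18 h. The labels call both vehicle groups unactivated. The 3 groups had 2 arrays each. KO vehicle was A2AR-/-FoxP3GFP cells, which lack the adenosine receptor A2AR, with the solvent DMSO. WT ATL1222 was A2AR+/+FoxP3GFP cells with 10 nM ATL1222, a selective agonist of that receptor. WT vehicle was A2AR+/+FoxP3GFP cells with DMSO. The replicates are biological by their labels, with no word on separate animals or pools, and p-values therefore cover the spread of these arrays and no more. The receptor's own gene was not analysed here, and no expression value checks the genotype.

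Tregs are CD4 T cells that restrain immune responses, and the forkhead factor Foxp3 is the factor that defines them. Foxp3 acts in complexes with other DNA-binding proteins, among them Runx1 with its partner subunit Cbfb, the related forkhead factor Foxp1, and the zinc finger protein Ikzf4 (Eos). Eos belongs to the Ikaros family of lymphocyte factors, with Ikzf1 (Ikaros), Ikzf2 (Helios), Ikzf3 (Aiolos) and Ikzf5 (Pegasus). A2AR signals through cAMP, which activates factors of the CREB family that bind the cAMP response element (CRE).

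With receptor loss or with the agonist, 0 of the 24 tested member probe sets passed limma at an adjusted p of 0.05 in any of the 3 comparisons. The brightest probe set of each of the 8 other genes had a 95% interval within a 2-fold change either way in all 3 comparisons. Over all probe sets tested, bright or dim, 53.7% to 56.4% had such an interval in a comparison. The single probe set of Foxp3 was too dim to be tested.

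RefSeq start-site windows (build GRCm38.p6, 250 bases before to 50 after a start) matched 6 of the 9 genes, with 11 windows of 300 bases. The windows were searched on both strands for TGACG, the core of the CRE, for the full CRE TGACGTCA, for the RUNX motif TGTGGT, for the forkhead motif GTAAACA and for the Ikaros core TGGGAA. The full CRE contains the core on both strands. The CRE core stood in 3 of the 11 windows and in 20.8% of all 32851 windows in the table. The full CRE stood in 0 of 11 and in 1.79% of all. The RUNX motif stood in 1 window of Runx1, against 16.8% of all, the forkhead motif in 0 against 3.65%, and the Ikaros core in 2, of Foxp3 and Foxp1, against 25.6%. The 4 windows below are shown because they hold the letters of the cAMP pathway's element or of the RUNX motif in a member's own promoter. Capitals mark the match. A match is only those letters, not a bound site.
Ikzf1, chr11:11685675-11685974, plus strand: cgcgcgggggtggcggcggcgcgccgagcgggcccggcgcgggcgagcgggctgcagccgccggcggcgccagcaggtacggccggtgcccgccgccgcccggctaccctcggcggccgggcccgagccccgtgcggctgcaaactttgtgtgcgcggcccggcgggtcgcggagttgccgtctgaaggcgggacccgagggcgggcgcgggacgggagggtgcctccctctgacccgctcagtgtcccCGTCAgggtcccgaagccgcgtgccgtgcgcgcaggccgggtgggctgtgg
Ikzf5, chr7:131410429-131410728, minus strand: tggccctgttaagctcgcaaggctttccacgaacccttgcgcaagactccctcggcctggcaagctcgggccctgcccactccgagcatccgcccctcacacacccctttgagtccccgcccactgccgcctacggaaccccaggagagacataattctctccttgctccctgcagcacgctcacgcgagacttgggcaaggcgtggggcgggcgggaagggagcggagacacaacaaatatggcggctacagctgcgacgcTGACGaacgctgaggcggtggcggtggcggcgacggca
Foxp1, chr6:99028249-99028548, minus strand: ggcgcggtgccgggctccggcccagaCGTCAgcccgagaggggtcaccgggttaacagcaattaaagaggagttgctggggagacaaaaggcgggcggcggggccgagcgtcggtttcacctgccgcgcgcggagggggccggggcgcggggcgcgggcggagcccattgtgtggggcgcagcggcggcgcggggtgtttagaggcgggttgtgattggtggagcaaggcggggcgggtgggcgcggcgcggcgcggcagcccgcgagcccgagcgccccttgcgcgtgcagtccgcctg
Runx1, chr16:92826025-92826324, minus strand: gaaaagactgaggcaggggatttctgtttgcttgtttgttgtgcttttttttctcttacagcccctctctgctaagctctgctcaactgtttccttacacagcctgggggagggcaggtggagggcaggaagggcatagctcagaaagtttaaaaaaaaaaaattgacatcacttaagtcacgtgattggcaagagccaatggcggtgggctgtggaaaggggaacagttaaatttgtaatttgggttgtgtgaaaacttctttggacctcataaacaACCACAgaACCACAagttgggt
In Ikzf5 the capitals are TGACG itself, 13 bases after the start, and in Ikzf1 and Foxp1 they are its reverse complement CGTCA, at positions -1 and -224 from the start. In Runx1 the reverse complement ACCACA of the RUNX motif stood at positions 29 and 37. The arrays measured no binding to these windows.

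The deposited values are signals on a linear scale, and each array had the same trimmed mean of 250. Median signals over the probe sets ran from 74.5 to 98.0. Differences were tested on log2(signal + 16), which understates the change of dim probe sets, and the lowest 40% of probe sets, with a signal below about 54.2, were left out. The number of arrays limits the precision, with a median standard error of 0.32 for a log2 difference. Other Treg genes were bright: Ctla4, an inhibitory receptor, had signals from 3432 to 6410, and Il2ra, the CD25 gene of the sort, from 416 to 613.1. Of 11 Treg and CD4 T cell markers on the array 10 lay above the limit, Foxp3 being the exception. Of the markers of other cells, 2 of 8 myeloid, 2 of 6 dendritic, 5 of 7 CD8 T and NK, 0 of 2 erythroid and 1 of 4 stromal genes lay above it.

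Foxp3, on chromosome X, had 1 probe set, 1420765_a_at. Its signal was 53.5 and 25.5 in KO vehicle, 45.0 and 29.3 in WT ATL1222, and 7.18 and 26.7 in WT vehicle. Every array lay below the limit for dim probe sets, although the cells were sorted by the FoxP3 reporter, and the groups overlapped except for WT ATL1222 against WT vehicle. In a fit with no filter the log2 difference was 0.77 in KO vehicle against WT vehicle (95% interval -0.54 to 2.08) and 0.74 in WT ATL1222 against WT vehicle (-0.57 to 2.05). Between WT ATL1222 and KO vehicle it was -0.03 (-1.34 to 1.28). Intervals this wide include both a more than 2-fold rise and a fall, so this probe set does not measure whether Foxp3 RNA changed. A probe set below the limit does not show that the RNA is absent.

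Ikzf2 and Ikzf4, the Ikaros family members best known from Tregs, differed little between groups on their brightest probe sets. Ikzf2, on chromosome 1, had 3 probe sets. On 1437542_at its signal was 7139 and 7083 in KO vehicle, 8431 and 7090 in WT ATL1222, and 7449 and 6810 in WT vehicle. All 3 groups overlapped there. The log2 difference was 0.00 in KO vehicle against WT vehicle (95% interval -0.29 to 0.28), 0.12 in WT ATL1222 against WT vehicle (-0.16 to 0.40) and 0.12 in WT ATL1222 against KO vehicle (-0.16 to 0.40).

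A second Ikzf2 probe set, 1456956_at, was somewhat higher with the agonist. Its signal was 808.8 and 1002 in KO vehicle, 1009 and 1285 in WT ATL1222, and 821.1 and 967 in WT vehicle. Both agonist arrays lay above all 4 others, the lower one by a few units. The log2 difference was 0.35 in WT ATL1222 against WT vehicle (95% interval -0.06 to 0.75, limma adjusted p = 1.00) and 0.33 in WT ATL1222 against KO vehicle (-0.07 to 0.74, limma adjusted p = 0.885), and neither passed. In KO vehicle against WT vehicle it was 0.01 (-0.39 to 0.42). This was the member probe set with the smallest p in WT ATL1222 against WT vehicle. The genes most like it over the 6 arrays by Pearson r were Rasal3, at 0.997, Rabgap1, at 0.992, and Mthfd2l, at 0.985. Of the probe sets tested that belong to 1 named gene other than Ikzf2, 145 had an r over 0.9. With 6 arrays and many probe sets, a high r can arise by chance, and this likeness was not tested. The other Ikzf2 probe set, 1421643_at, was dim, with signals from 53.7 to 159.2, both of them in WT vehicle.

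Ikzf4, on chromosome 10, had a signal on 1438274_at of 1871 and 1576 in KO vehicle, 1957 and 1654 in WT ATL1222, and 1910 and 1565 in WT vehicle. The groups overlapped, and the log2 differences were -0.01 in KO vehicle against WT vehicle (95% interval -0.37 to 0.35), 0.06 in WT ATL1222 against WT vehicle (-0.30 to 0.41) and 0.07 in WT ATL1222 against KO vehicle (-0.29 to 0.42). On 1457342_at both KO vehicle arrays, at 1246 and 1266, lay above those of WT ATL1222, at 1101 and 1156, and of WT vehicle, at 1179 and 1064. The differences there were 0.16 in KO vehicle against WT vehicle and -0.15 in WT ATL1222 against KO vehicle, and neither passed. Another probe set, 1460664_at, was dim, at 3.87 to 50.8, and was not tested.

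Ikzf1, on chromosome 11, encodes Ikaros, the founding member of the family in lymphocytes. On 1436312_at its signal was 2319 and 2462 in KO vehicle, 2188 and 1888 in WT ATL1222, and 2384 and 2122 in WT vehicle. The agonist arrays were both below the KO vehicle arrays, and the other pairs of groups overlapped. The log2 difference was -0.23 in WT ATL1222 against KO vehicle (95% interval -0.54 to 0.08, limma adjusted p = 0.920), -0.14 in WT ATL1222 against WT vehicle (-0.45 to 0.16) and 0.09 in KO vehicle against WT vehicle (-0.22 to 0.40). The other probe set, 1421303_at, was not tested, since its mean lay below the limit. It read 63.5 and 134.1 in KO vehicle, 26.1 and 43.5 in WT ATL1222, and 5.12 and 47.5 in WT vehicle. Both KO vehicle arrays were the highest, and in the fit with no filter the log2 difference in KO vehicle against WT vehicle was 1.58 (95% interval 0.10 to 3.06, limma adjusted p = 1.00). The bright probe set of the same gene gave 0.09 in that comparison.

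Ikzf3, also on chromosome 11, encodes Aiolos, which T and B lymphocytes use. On 1436649_at its signal was 1625 and 1326 in KO vehicle, 1346 and 1019 in WT ATL1222, and 1405 and 1465 in WT vehicle. WT ATL1222 lay below both WT vehicle arrays and overlapped those of KO vehicle. The log2 difference was -0.29 in WT ATL1222 against WT vehicle (95% interval -0.67 to 0.09, limma adjusted p = 1.00), -0.32 in WT ATL1222 against KO vehicle (-0.70 to 0.06, limma adjusted p = 0.880) and 0.03 in KO vehicle against WT vehicle (-0.35 to 0.41). The other 2 probe sets were near the limit. On 1441088_at the signal was 109.2 and 101.5 in KO vehicle, 73.6 and 71.9 in WT ATL1222, and 48.7 and 103 in WT vehicle. The agonist arrays lay below the KO vehicle arrays there, at a log2 difference of -0.45 with an interval of -1.42 to 0.51. The remaining one, 1453378_at, ran from 52.1 to 195.9, and both of those arrays were WT vehicle.

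B cells make Ikzf1 and Ikzf3 too, and the summed signal of the B cell markers was lowest with the agonist. Of its 6 genes on the array 4 lay above the limit. This sum was 7525 to 7646 in KO vehicle, 4855 to 4966 in WT ATL1222, and 7029 to 8099 in WT vehicle. Nearly all of it was Ighm, which encodes the heavy chain of IgM. Ighm read 7149 and 6855 in KO vehicle, 4198 and 4277 in WT ATL1222, and 7539 and 6395 in WT vehicle. Cd79b ran from 186.8 to 258.7 and Ms4a1 from 150 to 242.5 over the arrays, with the highest value of both in WT ATL1222. Cd22 read 76.9 and 47.1 in KO vehicle, 115.5 and 68.5 in WT ATL1222, and 138.8 and 106.6 in WT vehicle, where WT ATL1222 overlapped both other groups. The means of Cd79a and Pax5 lay below the limit. The part of B cell RNA in the Ikzf1 and Ikzf3 values was not tested. In bulk RNA of sorted cells, fewer cells of a type and less RNA per cell cannot be told apart.

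Ikzf5, on chromosome 7, encodes Pegasus, the most divergent member of the family. On 1429431_at its signal was 653 and 641.1 in KO vehicle, 619.5 and 633 in WT ATL1222, and 658.6 and 711.5 in WT vehicle. The 3 groups did not overlap and ran, from lowest, WT ATL1222, KO vehicle and WT vehicle, within a 1.15-fold span over all arrays. The log2 differences were -0.08 in KO vehicle against WT vehicle (95% interval -0.45 to 0.29) and -0.13 in WT ATL1222 against WT vehicle (-0.49 to 0.24). On 1436554_at the order differed, with 347 and 292.5 in KO vehicle, 261.4 and 285.4 in WT ATL1222, and 220.6 and 279.1 in WT vehicle. KO vehicle lay above both other groups there, by 0.34 on the log2 scale against WT vehicle (-0.18 to 0.87). The probe sets of this gene thus differed in sign for the knockout, and neither passed.

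**Figure D1:**
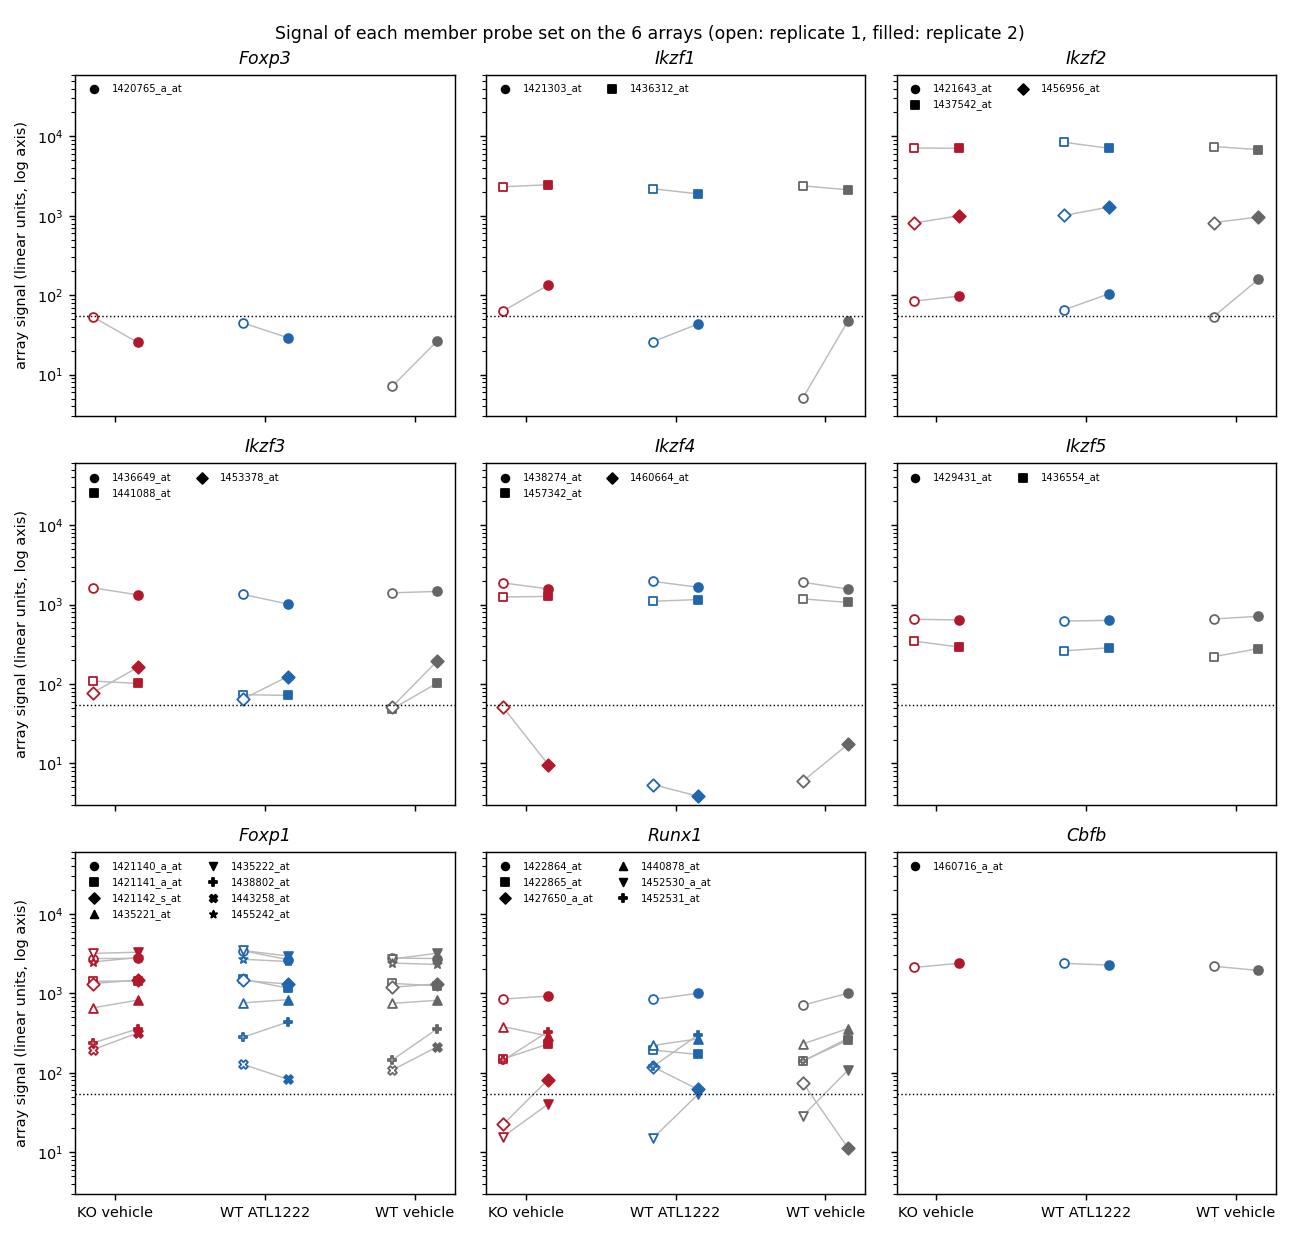
Array signal (log axis) of every probe set of the 9 genes, 1 panel a gene and 1 marker shape a probe set, in KO vehicle, WT ATL1222 and WT vehicle. Open points are replicate 1 and filled points replicate 2, joined by a grey line, and the dotted line is the limit for dim probe sets at 54.2. The bright probe sets run nearly level across the groups, Foxp3 stays below the line on all 6 arrays, and heights of different probe sets are not comparable.

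Foxp1, on chromosome 6, encodes a forkhead factor related to Foxp3 that T cells need to remain quiescent. It had 8 probe sets, all tested, and 7 of them gave small or uneven differences. On 1421140_a_at the signal was 2739 and 2754 in KO vehicle, 3439 and 2664 in WT ATL1222, and 2778 and 2739 in WT vehicle. The first agonist array was high and the second low, so the groups overlapped, with log2 differences of -0.01 in KO vehicle against WT vehicle (95% interval -0.33 to 0.31) and 0.13 in WT ATL1222 against WT vehicle (-0.19 to 0.45). On 1455242_at the signal was 2479 and 2827 in KO vehicle, 2686 and 2517 in WT ATL1222, and 2404 and 2306 in WT vehicle. Both WT vehicle arrays were the lowest there, at log2 differences of 0.17 for KO vehicle (-0.12 to 0.46) and 0.14 for WT ATL1222 (-0.15 to 0.44).

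The other bright Foxp1 probe sets gave the same picture of small differences. On 1435222_at the log2 difference was 0.14 in KO vehicle and 0.12 in WT ATL1222, both against WT vehicle. On 1421141_a_at these were 0.15 and 0.04 in that order, on 1421142_s_at 0.15 and 0.14, and on 1435221_at -0.09 and 0.02. On 1421141_a_at and 1421142_s_at the KO vehicle arrays lay above the WT vehicle arrays. The dimmer 1438802_at read 236.4 and 357.3 in KO vehicle, 279 and 433.3 in WT ATL1222, and 145.3 and 359.4 in WT vehicle. Its 0.57 in WT ATL1222 against WT vehicle (95% interval -0.27 to 1.40) was the highest of the 24 in that comparison, yet the groups overlapped.

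A single Foxp1 probe set, 1443258_at, stood apart from the other 7 in WT ATL1222 against KO vehicle. Its signal was 195.4 and 315.5 in KO vehicle, 128.2 and 83.1 in WT ATL1222, and 108.4 and 212.7 in WT vehicle. WT ATL1222 lay below KO vehicle on both arrays, and WT vehicle overlapped both groups. The log2 difference was -1.15 in WT ATL1222 against KO vehicle (95% interval -1.99 to -0.30, limma adjusted p = 0.549), which did not pass. It was 0.65 in KO vehicle against WT vehicle (-0.19 to 1.49) and -0.50 in WT ATL1222 against WT vehicle (-1.34 to 0.35). In WT ATL1222 against KO vehicle the other 7 lay between -0.10 and 0.25. What part of the gene each probe set reads is not given in the sources used here.

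Runx1, on chromosome 16, encodes the DNA-binding subunit of core binding factor. It had 6 probe sets, of which 4 were tested. On 1422864_at the signal was 846 and 923.9 in KO vehicle, 837.8 and 1004 in WT ATL1222, and 710.2 and 1003 in WT vehicle. The groups overlapped, and the log2 differences were 0.07 in KO vehicle against WT vehicle (95% interval -0.36 to 0.49), 0.12 in WT ATL1222 against WT vehicle (-0.31 to 0.54) and 0.05 in WT ATL1222 against KO vehicle (-0.37 to 0.48). On 1440878_at it was 380.9 and 289.9 in KO vehicle, 220.8 and 267.3 in WT ATL1222, and 230.7 and 359.8 in WT vehicle. Both agonist arrays lay below both KO vehicle arrays, at -0.43 on the log2 scale (-1.03 to 0.17, limma adjusted p = 0.924).

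The dimmer Runx1 probe sets varied more between the arrays of a group than between groups. On 1452531_at the signal was 143.7 and 330.7 in KO vehicle, 120.2 and 299.4 in WT ATL1222, and 140.2 and 271.5 in WT vehicle. Replicate 2 was the higher array in every group there. On 1422865_at the range was 140.8 to 257.1, and both of those arrays were WT vehicle. The untested 1427650_a_at and 1452530_a_at ran from 11.3 to 118.5 and from 15.1 to 107.7.

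Cbfb, on chromosome 8, encodes the subunit that stabilises Runx1 on DNA. On its 1 probe set, 1460716_a_at, the signal was 2115 and 2386 in KO vehicle, 2385 and 2269 in WT ATL1222, and 2193 and 1938 in WT vehicle. Both agonist arrays lay above both WT vehicle arrays, and KO vehicle overlapped both groups. The log2 difference was 0.17 in WT ATL1222 against WT vehicle (95% interval -0.13 to 0.48, limma adjusted p = 1.00), 0.12 in KO vehicle against WT vehicle (-0.18 to 0.43) and 0.05 in WT ATL1222 against KO vehicle (-0.25 to 0.35).

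The first comparison, KO vehicle against WT vehicle, addressed what loss of the receptor changes without agonist. Of all probe sets tested, 0 passed limma (0% of 27022), and 874 had an unadjusted p under 0.05. Of the 24 member probe sets 0 passed and 0 had an unadjusted p under 0.05, with adjusted p = 1.00 throughout. Their log2 differences ran from -0.09 to 0.65 with a median of 0.11, beside a median of 0.02 over all probe sets tested, and 17 were positive. The groups did not overlap for 6 members, 5 higher and 1 lower in KO vehicle, where 28.7% of all probe sets tested did not overlap. For 18 of the 24 the 95% interval lay within a 2-fold change either way, beside 56.4% of all probe sets tested. Of the 24 members, 20 were in the brighter of 2 equal parts of the probe sets tested, and brighter probe sets varied less.

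The second comparison, WT ATL1222 against WT vehicle, addressed what the agonist changes. It shares the WT vehicle arrays with the first. Of all probe sets tested, 9 passed, all higher (0.0333%), and 1036 had an unadjusted p under 0.05. Of the members 0 passed and 0 had an unadjusted p under 0.05. Their log2 differences ran from -0.50 to 0.57 with a median of 0.03, beside -0.02 over all probe sets, and 15 were positive. The groups did not overlap for 5 members, beside 29.8% of all: Ikzf2 1456956_at, Foxp1 1455242_at and Cbfb were higher and Ikzf3 1436649_at and Ikzf5 1429431_at lower with the agonist. The interval lay within a 2-fold change for 19 of 24, beside 56.0% of all probe sets tested. The smallest log2 difference that passed anywhere on the array was 0.98.

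The third comparison, WT ATL1222 against KO vehicle, set stimulated cells against cells without the receptor. It shares arrays with both others and differs in genotype and treatment at once. Here 83 probe sets rose and 5 fell (0.326% of all), and 1664 had an unadjusted p under 0.05. Of the members 0 passed, with adjusted p from 0.549 to 0.999, and 1, Foxp1 1443258_at, had an unadjusted p under 0.05. Their log2 differences ran from -1.15 to 0.33 with a median of -0.04, the same to 2 decimals as over all probe sets. The groups did not overlap for 8 members, 1 higher and 7 lower, where 35.5% of all did not. The 8 were Ikzf2 1456956_at, higher, and Ikzf1 1436312_at, Ikzf3 1441088_at, Ikzf4 1457342_at, both Ikzf5 probe sets, Foxp1 1443258_at and Runx1 1440878_at, lower with the agonist. The interval lay within a 2-fold change for 17 of 24, beside 53.7% of all probe sets tested.

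**Figure D2:**
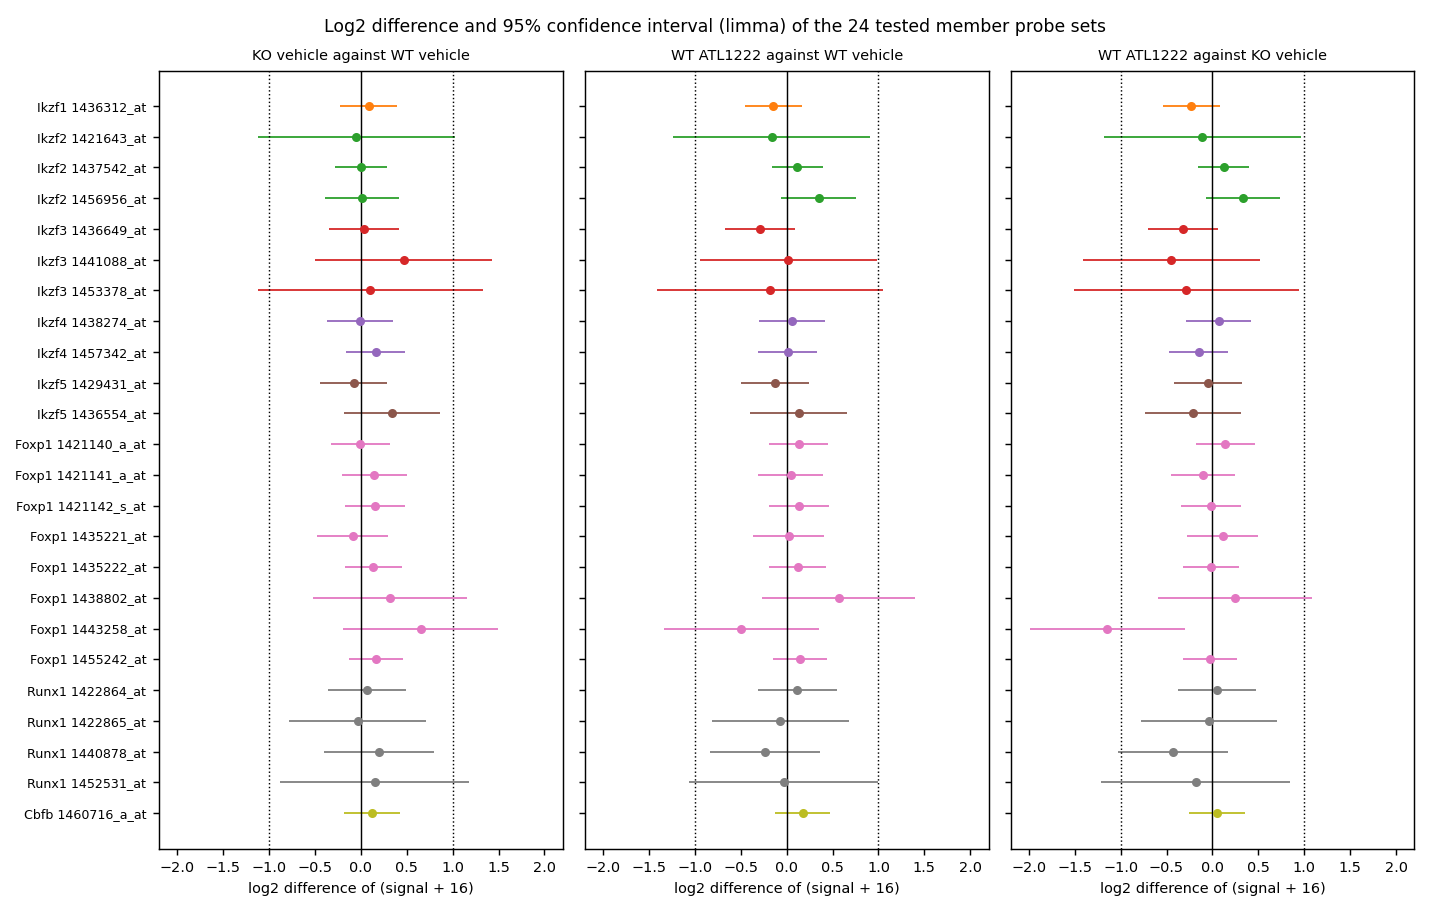
Log2 difference of (signal + 16), with 95% confidence intervals from limma, for the 24 tested member probe sets in the 3 comparisons, coloured by gene. Dotted lines mark a 2-fold change either way. Of the 72 intervals 71 include 0, the exception being Foxp1 1443258_at in WT ATL1222 against KO vehicle, at -1.15, which did not pass after adjustment.

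**Figure D3:**
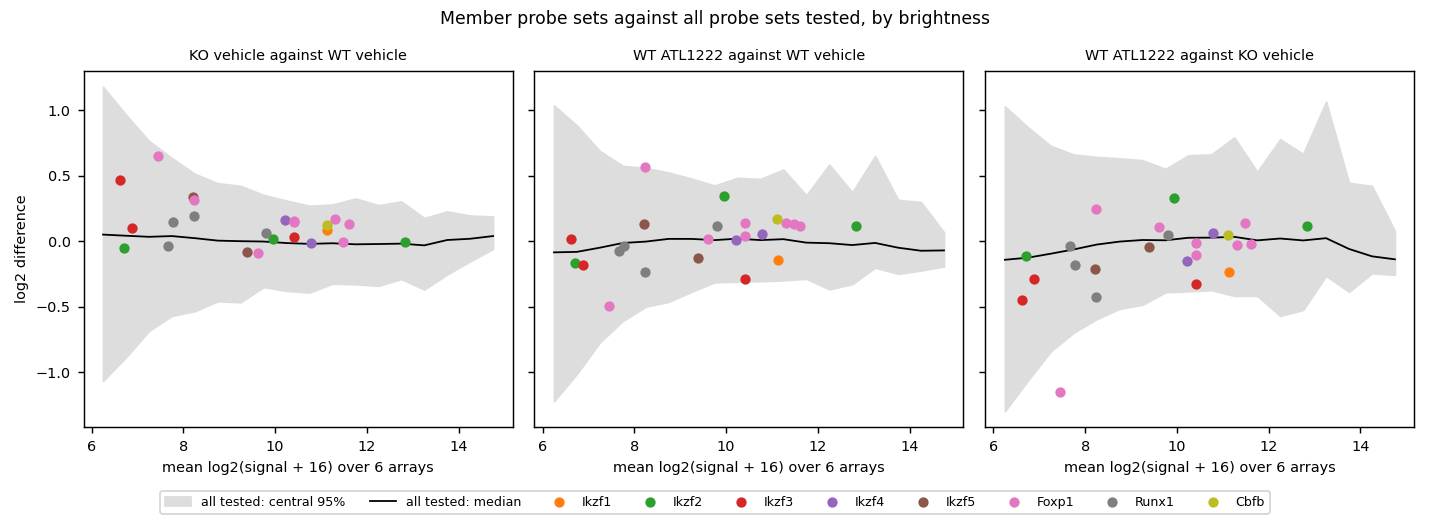
Log2 difference of the 24 tested member probe sets against their mean log2(signal + 16) over the 6 arrays, in the 3 comparisons. The grey band holds the central 95% of all 27022 probe sets tested, in bins of brightness, and the line is their median. Of the 72 points 70 lie within the band. Outside it are Foxp1 1438802_at in WT ATL1222 against WT vehicle, at 0.57, and Foxp1 1443258_at in WT ATL1222 against KO vehicle, at -1.15.

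The 2 arrays of a group differed in a way that depended on brightness. Over the dimmer of 2 equal parts of the probe sets tested, with a mean signal up to 187.9, replicate 2 was higher than replicate 1 in all 3 groups for 28.4% of 13511 probe sets. It was higher in all 3 for 2 of the 4 tested members in that part, Ikzf2 1421643_at and Ikzf3 1453378_at. In the brighter part replicate 2 was higher in all 3 groups for 15.6% of all probe sets and lower in all 3 for 25.9%. Of the 20 members in that part 5 were higher and 2 lower in all 3 groups. The median log2 difference of those 20 was 0.07 in KO vehicle, -0.08 in WT ATL1222 and 0.12 in WT vehicle, beside -0.06, -0.03 and -0.06 over all probe sets of that part. The log2 difference of replicate 2 minus replicate 1 of Runx1 1452531_at was 1.12 in KO vehicle, 1.21 in WT ATL1222 and 0.88 in WT vehicle. For Foxp1 1438802_at it was 0.56, 0.61 and 1.22, and for Ikzf2 1456956_at 0.30, 0.34 and 0.23, in the same order. Ikzf4 1438274_at went the other way, at -0.25, -0.24 and -0.28. Whether the replicate numbers mark a shared day or preparation is not given in the labels, and the part of this pattern in the members' values was not tested.

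**Figure D4:**
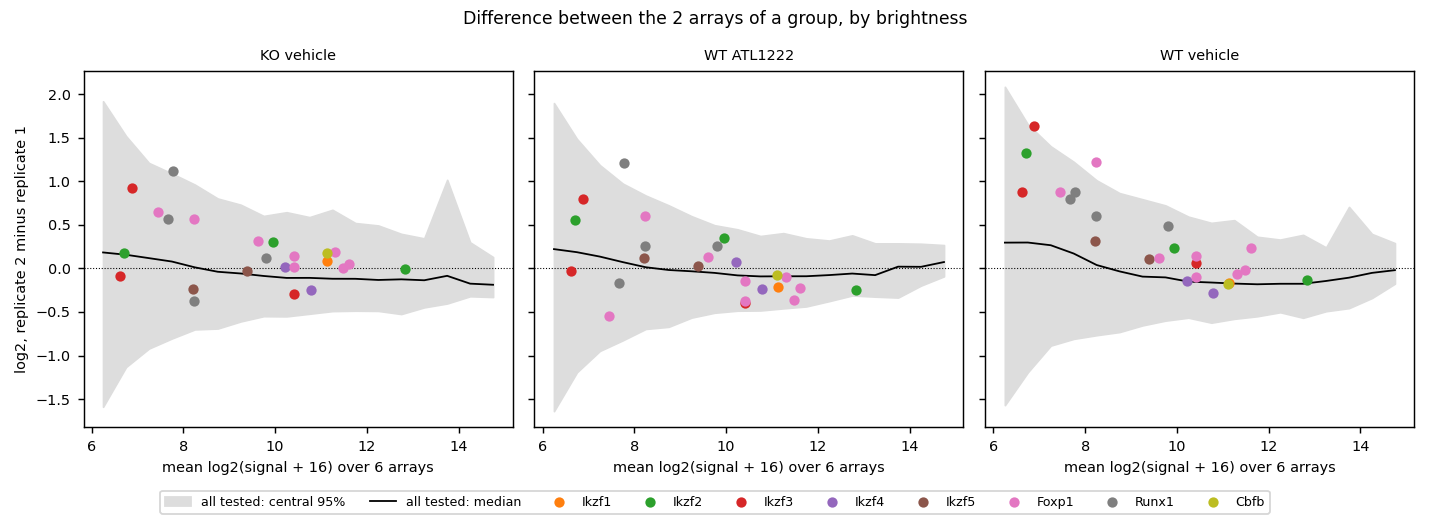
Log2 difference of replicate 2 minus replicate 1 within KO vehicle, WT ATL1222 and WT vehicle, against mean log2(signal + 16), for the 24 tested member probe sets. The grey band holds the central 95% of all probe sets tested, in bins of brightness, and the line is their median. In all 3 groups the line is above 0 for the dimmest probe sets and below it for those of middle brightness.

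Genes around the members were described by 6 lists, chosen with earlier results of these data known. The counts of calls in them are therefore not independent of those results. In the comparisons against WT vehicle 0 of the lists' probe sets passed. The proteins that Foxp3 binds or works with were 27 tested genes of 30, with 68 probe sets. Their median log2 difference was -0.05 in KO vehicle against WT vehicle, 0.03 in WT ATL1222 against WT vehicle and 0.09 in WT ATL1222 against KO vehicle, beside 0.02, -0.02 and -0.04 over all probe sets. In the third comparison 2 of the 68 probe sets of this list, of 2 genes, passed, both higher in WT ATL1222. Of all probe sets tested 0.326% passed in that comparison. Stat3, a cytokine-activated factor, had signals of 3804 and 3136 in WT ATL1222, against 1732 and 1565 in KO vehicle (log2 1.06 ± 0.15 SE, limma adjusted p = 0.0118). In WT vehicle it read 2240 and 1942. Hif1a, the oxygen-regulated factor whose product can bind Foxp3, had 1936 and 1919 in WT ATL1222, against 1002 and 1011 in KO vehicle (log2 0.93 ± 0.15 SE, limma adjusted p = 0.0244). In WT vehicle Hif1a had 1474 and 1233. The other tested probe sets of both genes did not pass. The brightest of Hif1a, 1427418_a_at, gave log2 0.72 (limma adjusted p = 0.0672). For Stat3, 1460700_at gave 0.94 (limma adjusted p = 0.1145) and 1424272_at -0.04 (0.999). Xbp1, also of this list, did not pass, at log2 0.75 on 1437223_s_at (limma adjusted p = 0.0625).

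Of the regulators of the Foxp3 gene and protein, 25 of 26 genes were tested, with 54 probe sets. In WT ATL1222 against KO vehicle 2 of these, both of 1 gene and higher, passed, beside 0.326% of all probe sets tested. That gene was Nr4a2, an early response nuclear receptor that can drive Foxp3 transcription. Its signal on 1455034_at was 466.4 and 480 in WT ATL1222, against 89.6 and 116.9 in KO vehicle (log2 2.05 ± 0.29 SE, limma adjusted p = 0.0132). On a second probe set, 1450750_a_at, it was 324.1 and 297.6 in WT ATL1222, against 82.8 and 100.4 in KO vehicle (log2 1.61 ± 0.28 SE, limma adjusted p = 0.0402). WT vehicle had 272.8 and 162.8 on the first of these and 169.3 and 168 on the second. On 1447863_s_at, at log2 0.94, and 1450749_a_at, at 1.06, Nr4a2 did not pass (limma adjusted p = 0.171 and 0.712). Its relative Nr4a3 (log2 1.36), and the interleukin-2 pathway factors Stat5a (0.74) and Stat5b (0.68), did not pass. On the probe set of each with the smallest p the limma adjusted p was from 0.116 to 0.122. The list's median was -0.02 in KO vehicle against WT vehicle, 0.04 in WT ATL1222 against WT vehicle and -0.03 in WT ATL1222 against KO vehicle.

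Of genes known to be raised by Foxp3, 17 of 20 were tested, with 34 probe sets. In WT ATL1222 against KO vehicle 1 of these passed, beside 0.326% of all probe sets tested. This was that of Tnfrsf18, the GITR gene, and it was higher. Tnfrsf18 had signals of 7823 and 6331 in WT ATL1222, against 3623 and 2921 in KO vehicle (log2 1.11 ± 0.17 SE, limma adjusted p = 0.0190). In WT vehicle it read 5124 and 3923. Penk, at log2 1.54, the co-stimulatory receptor Tnfrsf4, at 0.98, and Ctla4, at 0.75, did not pass (limma adjusted p = 0.0789, 0.0790 and 0.119). Nrp1, of the same list, was lower in WT ATL1222 against WT vehicle on each tested probe set. Its log2 differences ran from -0.48 to -0.34, and none passed. On 1418084_at it read 4391 and 4416 in WT ATL1222, 6345 and 5521 in KO vehicle, and 6420 and 5859 in WT vehicle. In WT ATL1222 against KO vehicle 17 of the 34 probe sets of this list were positive. Of genes known to be held down by Foxp3, 8 of 16 were tested, with 14 probe sets. In WT ATL1222 against KO vehicle 1 of these passed higher and 1 lower, beside 0.326% of all probe sets tested. Id2, an inhibitor of E protein transcription factors, had 1747 and 1356 in WT ATL1222, against 400 and 327.1 in KO vehicle (log2 2.04 ± 0.27 SE, limma adjusted p = 0.00726). In WT vehicle it read 772.2 and 411.9. On 1422537_a_at, at log2 2.89, and 1453596_at, at 1.35, Id2 did not pass (limma adjusted p = 0.169 and 0.839). Its relative Id3 had 791 and 994.2 in WT ATL1222, against 1808 and 1667 in KO vehicle (log2 -0.96 ± 0.16 SE, limma adjusted p = 0.0303). In WT vehicle Id3 read 1630 and 1486.

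The medians of the list raised by Foxp3 were -0.05 in KO vehicle against WT vehicle, -0.02 in WT ATL1222 against WT vehicle and 0.03 in WT ATL1222 against KO vehicle. Those of the list held down by Foxp3 were -0.01, -0.05 and -0.04 in that order. The corepressors that Ikaros proteins recruit, the NuRD complex among them, had 16 of 16 genes tested with 41 probe sets. None of these 41 passed in any of the 3 comparisons, and the medians were 0.05, 0.09 and 0.02. Of the other Foxp and Runx family genes 6 of 7 were tested, with 17 probe sets, 0 of which passed, and the medians were 0.13, -0.07 and -0.17. The lowest p there was that of Foxp2 1438231_at in WT ATL1222 against KO vehicle, at log2 -1.01 (limma adjusted p = 0.518).

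The 7 probe sets of Stat3, Hif1a, Nr4a2, Tnfrsf18, Id2 and Id3 that passed did not all pass with 1 array left out, where a group of 1 array is assumed to vary like the other groups. Without WT ATL1222 replicate 1, 0 of the 7 passed (limma adjusted p from 0.170 to 0.447). Without KO vehicle replicate 2, 1 passed (0.0411 to 0.15), without WT ATL1222 replicate 2, 2 (0.0402 to 0.240), and without KO vehicle replicate 1, 3 (0.0307 to 0.239). Without WT vehicle replicate 1, 6 passed, and without WT vehicle replicate 2, all 7. With no array left out but without the trend in the prior variance, each of the 7 also lost its call. Each kept its direction under every alternative that tested it. The log2 difference ran from 0.92 to 1.20 for Stat3, from 0.88 to 0.94 for Hif1a, from 0.95 to 1.26 for Tnfrsf18, from 1.86 to 2.22 for Id2 and from -1.12 to -0.79 for Id3. For Nr4a2 it ran from 1.69 to 2.21 on 1455034_at and from 1.27 to 1.76 on 1450750_a_at. In WT ATL1222 against WT vehicle log2 differences were 0.72 for Stat3, 0.51 for Hif1a, 0.65 for Tnfrsf18, 1.42 for Id2 and -0.80 for Id3. They were 1.11 and 0.82 on the same 2 probe sets of Nr4a2, and none of the 7 passed there.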

How the data were processed

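Total RNA of 6 Treg samples was labelled with biotin and hybridised to 1-colour arrays, per the labels' protocols. The values deposited by the authors are intensities on a linear scale, made with GCOS per the submitters' processing notes, whose version is not given in the sources used here. Their scaling was kept. The genes and lists were chosen with earlier results of these data known.

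Of 45101 probe sets 64 controls were left out. The platform's annotation, with symbols updated through Entrez identifiers, gave 1 gene for 34945 of the rest, several for 932, and did not list 9160. Of the 34945, 34741 matched RefSeq's mouse gene table (GRCm38.p6). Values were log2(signal + 16). The lowest 40% by mean over all arrays, below 6.13, were left out. The test was limma (version 3.58.1, R version 4.3.3) on all 6 arrays in 1 fit with a trended prior variance, and Benjamini-Hochberg adjustment over 27022 probe sets at 0.05; the code was tested on simulated data. An exact test of 2 against 2 arrays cannot go below p = 0.33.

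Named were all 9 members with all probe sets, the 3 genes most like the member with the smallest p in WT ATL1222 against WT vehicle, and from each list genes past the threshold and up to 4 with the smallest p, of which the text gives some. Markers of other cells were given by count, with values where they touch a result. Alternatives changed the pseudocount, filter, normalization, trend, arrays fitted, replicate block and choice of probe set, or left out 1 array.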

Additional observations from a re-analysis of the deposited data

How the results depend on the processing

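Some alternatives, namely the higher filter and 1 probe set a gene, did not test all 24 member probe sets. The member probe sets tested gave 0 calls in each comparison under each of the 16 alternatives. Their lowest adjusted p in limma was 0.849 (Foxp1 1438802_at without WT vehicle replicate 2) in KO vehicle against WT vehicle. It was 0.605 (Ikzf2 1456956_at) in WT ATL1222 against WT vehicle and 0.239 (Foxp1 1443258_at) in WT ATL1222 against KO vehicle, both with the replicate block. Signs changed under some alternative for 13, 15 and 15 of the 24 in that order of comparisons, and for 1 each where the log2 difference was over 0.25. Over all probe sets the count of calls moved. In KO vehicle against WT vehicle, 0 became 1 with a pseudocount of 64, 3 after quantile normalization, 4 after cyclic loess, 11 with the replicate block and 3 with 1 probe set a gene, and 0 to 6 with 1 array left out, with 6 when WT vehicle replicate 2 and 3 when KO vehicle replicate 1 was dropped. In WT ATL1222 against WT vehicle, 9 became 22 with a pseudocount of 64, 20 after quantile normalization, 24 after cyclic loess, 0 without the trend, 25 with only the 4 arrays compared, 75 with the replicate block and 23 with 1 probe set a gene. It became 3 to 21 with 1 array left out, namely 21 when WT vehicle replicate 1, 20 when KO vehicle replicate 2, 3 when WT ATL1222 replicate 1 and 4 when WT ATL1222 replicate 2 was dropped. In WT ATL1222 against KO vehicle, 88 became 0 without the trend, 260 with the replicate block, and 15 to 104 with 1 array left out. Dropping WT ATL1222 replicate 1 gave 15, its replicate 2 gave 37, KO vehicle replicate 1 gave 49 and its replicate 2 gave 47. With the replicate block Crbn 1423094_at and 1423095_s_at passed in WT ATL1222 against WT vehicle (limma adjusted p = 0.000984 and 0.0132), and 1455734_at in WT ATL1222 against KO vehicle (limma adjusted p = 0.0269). Over the alternatives the calls of any 1 list ran from 0 to 7 in WT ATL1222 against KO vehicle and from 0 to 2 in WT ATL1222 against WT vehicle, and stayed at 0 in KO vehicle against WT vehicle. The cause was not tested. Same-numbered arrays deviated together, with Pearson r across 27022 probe sets of 0.24 between KO vehicle and WT vehicle, 0.22 between WT ATL1222 and WT vehicle and 0.15 between WT ATL1222 and KO vehicle, but the labels do not say what the numbers mark. With 2 arrays a group, dim probe sets such as that of Foxp3 limit what can be seen.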

Other observations

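Crbn, chosen after its values were seen, encodes cereblon, the substrate receptor of a ubiquitin ligase that in human cells directs IKZF1 and IKZF3 proteins to degradation when bound to thalidomide analogs. Its RNA was higher in WT ATL1222 than in KO vehicle. On 1423094_at the signal was 2692 and 2220 in WT ATL1222, against 807.8 and 682.9 in KO vehicle, and 1215 and 895.8 in WT vehicle. Both agonist arrays lay above all 4 others. The log2 difference in WT ATL1222 against KO vehicle was 1.70 ± 0.19 SE (limma adjusted p = 0.00194). On 1423095_s_at the signal was 5588 and 4244 in WT ATL1222, against 1878 and 1880 in KO vehicle, and 3099 and 2432 in WT vehicle, and the log2 difference was 1.37 ± 0.17 SE (limma adjusted p = 0.00442). On the third probe set, 1455734_at, it was 0.83 ± 0.18 SE and did not pass (limma adjusted p = 0.132). In WT ATL1222 against WT vehicle the log2 differences were 1.22, 0.82 and 0.43 in that order of probe sets, and in KO vehicle against WT vehicle -0.48, -0.54 and -0.40. None of these 6 passed. The call of 1423094_at in WT ATL1222 against KO vehicle held in 14 of the 16 settings that tested it, with limma adjusted p up to 0.348, and that of 1423095_s_at in 15 of 17, with up to 0.522. Ikzf1 1436312_at had a log2 difference of -0.23 and Ikzf3 1436649_at of -0.32 in the same comparison and did not pass. The treatments were DMSO or ATL1222, with no thalidomide analog named, and a link of Crbn to these values was not tested. The arrays measured RNA, not the proteins of these genes.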
